A study of Mus musculus with 12 samples.

Results

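Livers of 8 mice that had swallowed silver nanoparticles, 4 given particles with a citrate coat and 4 given particles with a polyvinylpyrrolidone (PVP) coat, were compared as one silver group with livers of 4 mice given water. These are all 12 arrays of the series. The treatment in each sample's title assigned it to its side, so no measured value entered the choice. The mice were C57BL/6J -Oca2p-un/J, a black 6 strain that carries the pink-eyed unstable allele at the Oca2 locus in every group, and were 3 months old. Particles of 20 nm were given by gavage at 4 mg of silver per kg on 7 consecutive days, and livers were taken 24 h after the last dose. Each coating had 2 males and 2 females, as had the water group, with 1 liver on 1 array, so the silver group held 4 of each sex. The question was which liver genes differ after silver whatever the coating. All values are log2 signals, where a difference of 1 is a 2-fold change; levels of different genes were not set against each other, since probes differ in brightness.

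Silver particles release silver ions, which bind to the thiol groups of proteins. Cells meet such ions with metallothioneins, small cysteine-rich proteins that the zinc sensor MTF1 switches on through metal response elements in their promoters, and with glutathione, whose enzymes are under the control of the stress factor NRF2. The liver is the first organ that drains the gut, and its hepatocytes also make the acute phase proteins of inflammation.

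Array quality varied. Ranking exon control above intron control probe sets gave an area under the curve of 0.824 ± 0.016 with water (SD, n = 4) and 0.8112 ± 0.01675 with silver (SD, n = 8), a difference of -0.01276 (exact permutation test, two-sided p = 0.2384; the smallest p the design allows is 0.00202). The lowest of the 12 areas were 0.778 and 0.794, in PVP replicates 1 and 4. Small RNAs moved with those arrays: 641 of 730 small nuclear RNAs were above 0 in silver minus water, with a median of 0.31, and measured from the water livers of their own sex they deviated by a median of 0.76 and 0.78 on these arrays, against -0.14 to 0.50 on the other silver arrays. Protein-coding genes had a median of -0.03 over 13225 genes. The part of array quality in these values was not tested. Counts without these arrays are given beside some of the lists below, and those of other lists changed as well. The deposited values stop at 19.93. On all 12 arrays 32 genes stood at that ceiling, among them Alb (albumin), Hamp (hepcidin, the iron hormone), Hspa8 (the constitutive HSP70 chaperone) and Cyp3a11 (a drug-metabolising cytochrome P450), so no difference could be measured for these. Albumin, apolipoproteins Apoa2 and Apob, and Ahsg at the ceiling are markers of the labelled tissue, liver.

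Silver against water gave 4 genes past a limma adjusted p of 0.05 among 19985 tested, which is 0.02% of them. Grb7, Camsap3 and Atxn2 fell and Gm4910 rose. Each of these genes differed in the same direction with both coatings and in both sexes, and in each of them no silver array overlapped a water array. At an adjusted p under 0.1 there were 32 genes (0.16%), 25 of them lower and 7 higher with silver. Of the lower ones 23 are protein-coding. In 25 of the 32 no silver array overlapped a water array, which the choice by small p favours. Over all genes silver lay wholly above water in 0.4% and wholly below it in 0.811%. Without PVP replicates 1 and 4 only Grb7 passed.

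Grb7, encoded on chromosome 11, is an adaptor that binds activated receptor tyrosine kinases and passes their signal on. Its log2 signal was 9.75, 9.50, 9.86 and 9.36 in water replicates 1 to 4. The citrate livers had 8.42, 8.51, 8.77 and 8.74, and the PVP livers had 8.56, 8.72, 8.69 and 8.91. The highest silver liver thus lay below the lowest water liver. Grb7 fell by 0.95 on the log2 scale (SE 0.09; 95% interval -1.14 to -0.75; limma adjusted p = 0.00566), from 9.61 ± 0.23 (SD, n = 4) to 8.67 ± 0.16 (SD, n = 8), a 1.93-fold drop. Citrate minus water was -1.0 and PVP minus water was -0.89; these values share the same water livers. PVP minus citrate was 0.11 (95% interval -0.11 to 0.32). In males the silver effect was -1.02 and in females -0.87. The call was lost only without water replicate 1 among the 12 fits that left out 1 array (limma adjusted p = 0.0617).

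Camsap3, on chromosome 8, caps the minus ends of microtubules and anchors them in epithelial cells. The water livers had 6.19, 5.86, 6.11 and 5.94. In the 8 silver livers the lowest value was 5.37, the median 5.53 and the highest 5.73. All silver livers therefore stood below all water livers, by a gap that was small beside the range within either group. Camsap3 fell by 0.48 (SE 0.05; limma adjusted p = 0.00916), from 6.03 ± 0.15 (SD, n = 4) to 5.55 ± 0.13 (SD, n = 8). Both coatings gave -0.48, and PVP minus citrate was -0.01 (95% interval -0.14 to 0.13). Without water replicate 1 or 4 the call was lost.

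Atxn2, on chromosome 5, encodes ataxin-2, an RNA-binding protein of stress granules and of translation control. It stood at 9.78, 9.67, 9.96 and 9.53 in the water livers. The silver livers ran from 8.69 over a median of 8.98 to 9.35, again with no overlap. Atxn2 fell by 0.71 (SE 0.09; limma adjusted p = 0.0472), from 9.74 ± 0.18 (SD, n = 4) to 9.03 ± 0.25 (SD, n = 8). Citrate and PVP gave -0.72 and -0.70, with PVP minus citrate at 0.02 (95% interval -0.22 to 0.27). It was the call lost most often: when each of the 12 arrays was dropped in turn it passed 1 time, without PVP replicate 1.

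Gm4910, a pseudogene on the X chromosome with a predicted name, had 5.16, 4.77, 5.37 and 4.89 with water. Silver livers had 5.38 at the lowest, 5.84 at the median and 6.15 at the highest. The highest water liver and the lowest silver liver lay within 0.01 of each other on the rounded scale but did not overlap. Gm4910 rose by 0.75 (SE 0.09; limma adjusted p = 0.0148), with 0.74 for citrate and 0.77 for PVP. Its call was lost without water replicate 1, 2 or 4 or PVP replicate 4. Signal of a pseudogene and of genes like it in sequence was not separated, so this gene is uncertain.

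**Figure D1:**
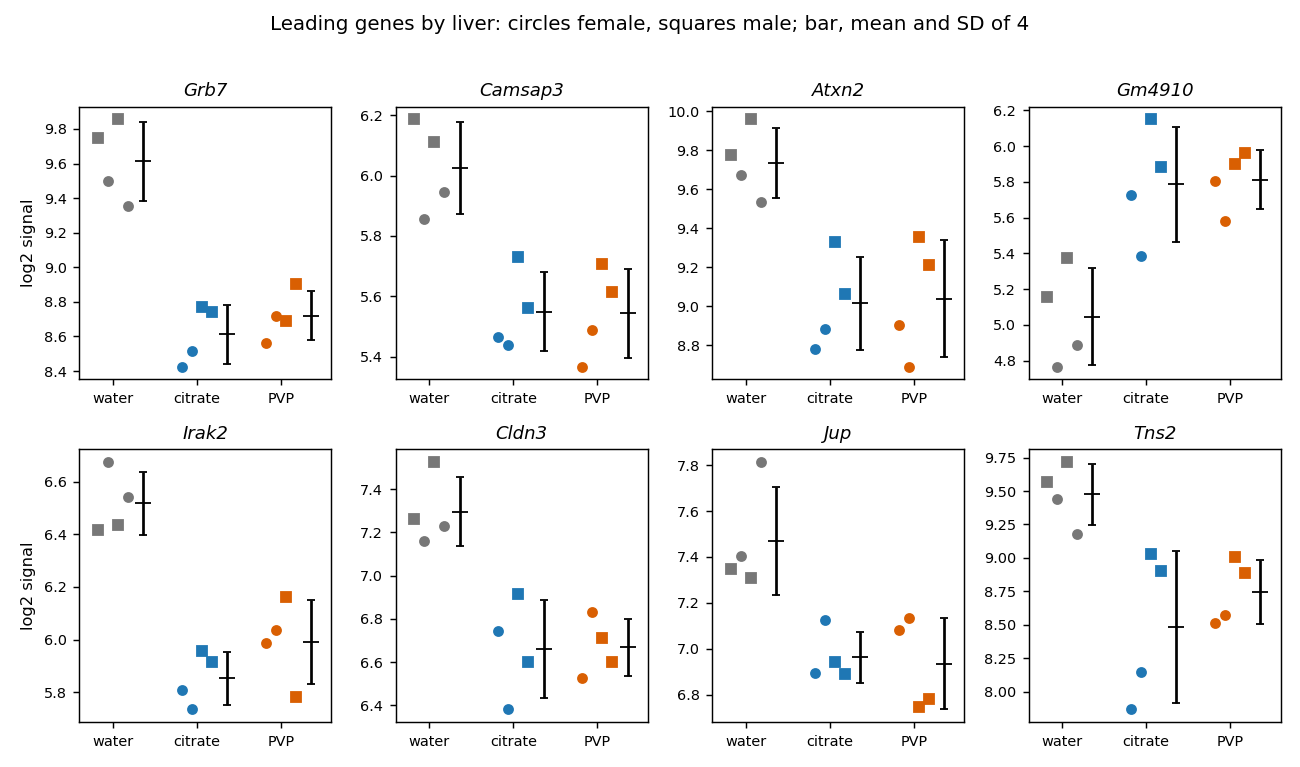
Log2 signal of 8 genes in each liver, by water, citrate and PVP group (vertical axis differs by panel; circles are females, squares males; the bar is the mean with the SD of 4). Within each panel all silver livers lie on one side of all water livers, above them in Gm4910 and below them in the others; Grb7, Camsap3, Atxn2 and Gm4910 passed an adjusted p of 0.05 and Irak2, Cldn3, Jup and Tns2 did not.

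The split of the calls moved with the scaling. As reported 1 gene rose and 3 fell; with quantile normalisation 3 rose and 3 fell, and with arrays centred on their median over protein-coding genes 3 rose and 2 fell. Grb7 and Camsap3 fell and Gm4910 rose under both of these scalings, and Lurap1l and Snora20 rose as well; with quantile normalisation Fam210b also fell. When only the 13225 protein-coding genes were tested, a choice made after the data were seen, 10 genes fell and 0 rose: Grb7, Camsap3, Atxn2, Gtf2ird1, Irak2, Khnyn, Mid1ip1, Rai14, Cldn3 and Tjp3. The limma count at an unadjusted p under 0.05 among these was 423 higher and 1179 lower.

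Signalling genes were found among the 32 genes at an adjusted p under 0.1, none of which passed 0.05 beyond the 4 above. Irak2, a kinase that carries signals from interleukin-1 and Toll-like receptors, had 6.42, 6.67, 6.43 and 6.54 with water and 5.74 to 6.16 with silver (median 5.94). Its difference was -0.59 (SE 0.09; limma adjusted p = 0.0666), with -0.66 for citrate and -0.53 for PVP. Tns2, a tensin that links integrins to the actin skeleton at focal adhesions, had 9.56, 9.44, 9.72 and 9.18 with water and 7.87 to 9.03 with silver (median 8.73). The highest silver values of Tns2 were males of both coatings, 9.03 and 9.01, and its difference was -0.86 (SE 0.14). Fzd5, a receptor for Wnt ligands, lay at 5.42 to 5.78 with water and 5.10 to 5.33 with silver, a difference of -0.43 (SE 0.07). None of the water livers of these 3 genes overlapped a silver liver.

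Junction and cytoskeletal genes were also among them. Cldn3, a tight junction claudin of hepatocytes and bile ducts, had 7.26, 7.16, 7.53 and 7.23 with water and 6.38 to 6.92 with silver (median 6.66), a difference of -0.63 (SE 0.10; limma adjusted p = 0.0747). Jup, the plakoglobin of desmosomes and adherens junctions, had 7.35, 7.40, 7.31 and 7.81 with water and 6.75 to 7.13 with silver (median 6.92), a difference of -0.52 (SE 0.09). Tjp3, a scaffold of tight junctions, lay at 5.84 to 6.03 with water and 5.45 to 5.75 with silver, a difference of -0.30 (SE 0.05). Here again the 2 sides did not overlap for any of the genes. Rai14, an actin-binding protein, differed by -0.37 (SE 0.06) and Septin9, which forms filaments at membranes, by -0.42 (SE 0.07). Anks4b, a scaffold of microvilli named after its values were seen, had 9.21, 8.85, 8.94 and 9.06 with water and 7.72 to 8.65 with silver, a difference of -0.78 (SE 0.14), with -0.78 for each coating.

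Gtf2ird1, a transcription factor, differed by -0.55 (SE 0.08) and Khnyn, a partner of an antiviral zinc finger protein, by -0.39 (SE 0.06), each with a limma adjusted p of 0.0666. Mid1ip1, which promotes fatty acid synthesis through acetyl-CoA carboxylase, had 7.36, 7.42, 7.00 and 7.41 with water and 6.41 to 6.82 with silver. Its difference was -0.67 (SE 0.10), at -0.47 in males and -0.87 in females. Of the 32 genes only Mid1ip1 had a sex difference at an unadjusted limma p under 0.05, as had 2.35% of all genes. Its male value rests on water replicates 1 and 3, at 7.36 and 7.00, and replicate 3 stood apart from the other water livers. Nothing is read from this sex difference. Leng8 and Stom, a membrane protein, each differed by -0.55 (SE 0.09). Ranbp10, a Ran-binding protein, Ppfibp2, a liprin, Fam210b, a mitochondrial protein, Bicral, Xkr8, a lipid scramblase, and Als2cl, all named after their values were seen, had -0.83, -0.56, -0.48, -0.44, -0.42 and -0.29.

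Of the 7 genes higher with silver at this threshold, 5 do not encode proteins. Snora20, a small nucleolar RNA of the kind that guides pseudouridylation, had 6.04, 5.71, 6.50 and 5.79 with water and 6.24 to 7.31 with silver, a difference of 0.81 (SE 0.13; limma adjusted p = 0.0747); water replicate 3 lay inside the silver range. The small nuclear RNA Gm24400 and the long noncoding RNAs Gm16348 and AI463170 had 1.06, 1.7 and 0.55, while of the lower noncoding genes Gm12909 and 1810019D21Rik had -1.25 and -0.59. Small RNAs as a class were higher on the arrays of low area, as given above. Snora20 was not: it had 6.36 and 6.87 on PVP replicates 1 and 4, within the 6.24 to 7.31 of the other silver arrays. The protein-coding pair was Lurap1l, with 8.37, 7.94, 8.77 and 8.28 against 8.60 to 9.65 (difference 0.92, SE 0.15), and Aopep, an aminopeptidase named after its values were seen, with 5.66 to 6.19 against 6.20 to 6.64 (difference 0.51, SE 0.09). Lurap1l overlapped at PVP replicate 1, and Aopep did not overlap.

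None of the 32 genes differed between coatings at an unadjusted p under 0.05, where 14% of all genes did, and PVP minus citrate ran from -0.27 to 0.41 over them. The pooled fit counts a gap between coatings as spread, so it favours genes with little of it, and nothing is read from that count. Over all genes, PVP against citrate gave 0 calls (smallest limma adjusted p 0.101), with 2800 genes at an unadjusted p under 0.05. Against water, citrate gave 1 gene (0.005%) and PVP gave 8 (0.04%); these counts share the water livers and were not compared. Some of the genes of smallest p between the coatings show what pooling hides. Prox1, a transcription factor of hepatocytes, differed by -0.63 with citrate and 0.62 with PVP, and -0.01 when pooled; PVP minus citrate was 1.25 (95% interval 0.85 to 1.65). Ablim3, an actin-binding protein, had 0.73 and -0.22, and Snord16a, a small nucleolar RNA that guides methylation, had 0.30 and 1.09.

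**Figure D2:**
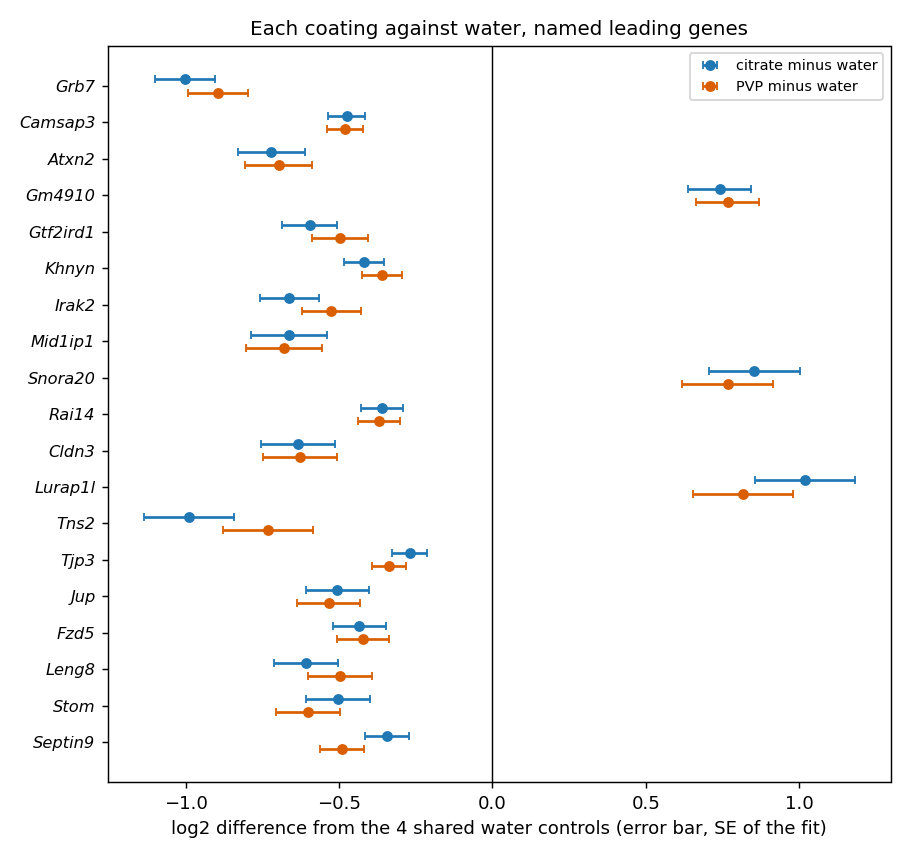
Log2 difference of each coating from the same 4 water livers for 19 named genes at an adjusted p under 0.1, with the SE of the fit. The points of both coatings lie on the same side of 0 for each gene, as the choice of genes favours; the widest gap drawn is that of Tns2, -0.99 with citrate and -0.73 with PVP.

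The silver effect did not pass as different between the sexes for any gene (0 calls by limma, smallest adjusted p 1), and 469 genes (2.35%) had an unadjusted p under 0.05. With 2 water livers of each sex these differences are poorly measured. Sntg2, a syntrophin, had -0.55 in males and 0.51 in females, and Arrdc4, an arrestin-domain protein, had 0.03 and -0.80; neither passed.

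Over all genes, 848 were higher (4.24%) and 1259 lower (6.3%) with silver at an unadjusted p under 0.05. That split moved with the settings. With arrays centred on their median over protein-coding genes, 1476 were higher and 684 lower. The counts were near even with no filter on low signal (1341 and 1345) and without water replicate 2 (1333 and 1332). Under every other setting run more genes were lower than higher. All silver livers lay above all water livers in 80 genes (0.4%) and below them in 162 (0.811%). Arrdc3, an arrestin-domain protein that acts on membrane receptors, had the most negative difference among the latter and was named after its values were seen. Its log2 signal was 12.99, 12.38, 12.46 and 11.38 with water. With silver it was 8.84 to 11.25, with a median of 9.91. Arrdc3 differed by -2.27 (SE 0.44), a 4.84-fold lower level, with -2.55 for citrate and -2.0 for PVP, but its limma adjusted p was 0.13. The spread within groups was wide, with an SD of 0.67 for water and 0.80 for silver. Bcar3, an adaptor beside focal adhesion kinase signalling, lay at 8.30 to 8.67 with water and 7.30 to 8.06 with silver, a difference of -0.78 (SE 0.15; limma adjusted p = 0.13), with -1.01 for citrate and -0.55 for PVP. Crat, carnitine acetyltransferase, also named after its values were seen, differed by -0.72 (SE 0.14) without overlap and did not pass.

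Gene lists were described by their counts, beside 4.24% of all genes higher and 6.3% lower at an unadjusted p under 0.05. The balance of these shares moved with the scaling, as given above. Among protein-coding genes alone, to which nearly all list members belong, these shares were 2.78% and 8.27%. Of those 13225 genes 7808 were below 0, 5487 of them with both coatings, and 5391 (40.76%) were above 0. All silver livers lay below all water livers in 153 of the 13225 and above them in 42. Among growth factor adaptors and focal adhesion genes 9 of 33 (27.27%) were lower and 1 was higher, 4 had no overlap between silver and water, Grb7 passed over all genes, and the median was -0.15. Gab1, a docking adaptor, had 7.43 to 7.83 with water and 6.97 to 7.43 with silver, a difference of -0.37 (SE 0.09; limma adjusted p = 0.228). Among microtubule and actin genes 5 of 23 (21.74%) were lower and 1 was higher, with a median of -0.14; Camsap3 passed. Mapre3, which tracks growing microtubule plus ends, differed by -0.25 (SE 0.07) and the tubulin Tubb5 by -0.44 (SE 0.14), the latter at -0.25 with citrate and -0.63 with PVP. Without PVP replicates 1 and 4 the lower counts were 8 of 33 and 4 of 23 and the medians -0.07 and -0.11; with array area in the fit the first median was -0.04. These lists hold genes that earlier results of these data brought forward, so their counts are no independent evidence.

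**Figure D3:**
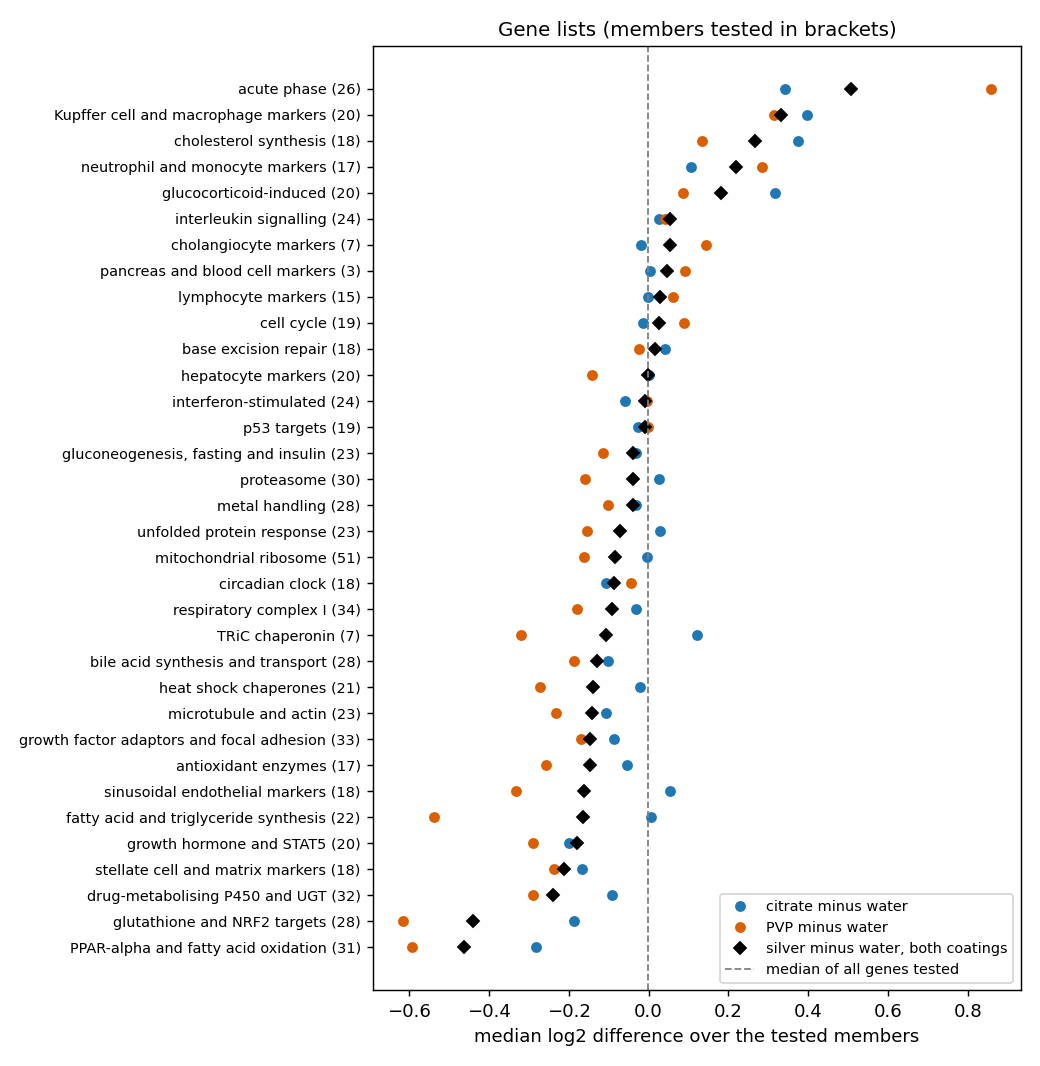
Median log2 difference over the tested members of 34 gene lists, for silver minus water and for each coating minus the same water livers; the dashed line is the median of all 19985 genes. Acute phase genes stand highest at 0.51 and PPAR-alpha and glutathione genes lowest at -0.46 and -0.44, in each case farther from 0 with PVP than with citrate.

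Metallothioneins spread widely among the water livers. Mt2 had 7.56, 17.86, 11.20 and 17.90 in water replicates 1 to 4, of which 1 and 3 are males. The citrate livers had 18.68, 18.66, 15.78 and 17.17 and the PVP livers 18.70, 18.78, 13.13 and 17.89. Female water livers thus already stood near the silver livers, while both male water livers lay below all silver livers. Mt2 minus water was 3.72 (SE 1.18; limma adjusted p = 0.348), with 3.95 for citrate and 3.49 for PVP. In males it was 6.61 and in females 0.83; the difference between the sexes was -5.79 (95% interval -9.56 to -2.02; limma adjusted p = 1). Mt1 ran the same way, with 8.86, 16.98, 12.60 and 16.88 in water and 13.52 to 17.37 in silver, a difference of 2.74 (SE 0.97; limma adjusted p = 0.391). Without water replicate 1 the values were 2.31 for Mt2 and 1.47 for Mt1. Igfbp1, an insulin-repressed binding protein of insulin-like growth factors, had 6.82, 15.12, 12.15 and 15.79 in water, again with the males low. Its difference was 2.69 (SE 0.96, limma adjusted p = 0.396), or 1.28 without water replicate 1. The cause of the low values in male water livers was not tested.

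The promoters were searched for the motif that the metal sensor binds. The sequences are the 250 bases before the RefSeq start on the GRCm38.p6 assembly, at the most upstream start where a gene had several. They lie at chr8:94172368-94172617 for Mt2, chr8:94178839-94179088 for Mt1 and chr5:121711359-121711608 for Atxn2, all on the plus strand and 5′ to 3′. Bases farther upstream or after the start were not searched. Both metallothioneins are shown as the known targets of the metal sensor, and Atxn2 as the called gene with an entry. Capitals mark matches on either strand to the core of the metal response element, TGCACNC or TGCGCNC.
Mt2: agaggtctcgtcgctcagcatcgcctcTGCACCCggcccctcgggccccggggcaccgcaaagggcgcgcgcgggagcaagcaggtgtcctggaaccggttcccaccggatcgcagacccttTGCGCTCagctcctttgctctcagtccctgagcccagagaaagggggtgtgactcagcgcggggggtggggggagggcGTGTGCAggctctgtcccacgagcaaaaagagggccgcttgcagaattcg
Mt1: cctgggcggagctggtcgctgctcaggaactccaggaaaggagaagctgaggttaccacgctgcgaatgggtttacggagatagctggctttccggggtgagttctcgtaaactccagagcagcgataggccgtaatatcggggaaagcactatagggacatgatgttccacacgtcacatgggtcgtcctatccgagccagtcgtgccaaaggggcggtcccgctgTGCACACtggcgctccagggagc
Atxn2: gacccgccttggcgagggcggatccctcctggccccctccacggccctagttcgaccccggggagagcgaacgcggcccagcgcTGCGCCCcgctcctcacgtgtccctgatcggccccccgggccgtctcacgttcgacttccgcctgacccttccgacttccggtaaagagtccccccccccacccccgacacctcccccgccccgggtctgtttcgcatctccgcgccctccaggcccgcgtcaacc
Mt2 held 3 matches, Mt1 and Atxn2 1 each. For counts, a gene with several starts had a match if any of its windows of 250 bases held one. That was so in 6420 of 27025 genes with an entry, tested here or not (23.76%). Among the 23 genes at an adjusted p under 0.1 that had an entry, 13 had a match (56.52%). Most of the 23 were lower with silver, 20 in all, and 12 of these 20 had a match. The median GC content of these windows was 61.2% in the 23 genes and 52.4% in all, and its part in the matches was not tested. Other motifs were less frequent: TGACNNNGC, the core of the antioxidant response element, in 4 of 23 against 11.52% of all, CACGTG, the E-box, in 2 of 23 against 6.86%, and GAANNTTC, the core of the heat shock element, in 1 of 23 against 7.726%. A match says only that the letters are present.

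Of 28 metal genes tested, with Mt1 and Mt2 included, 3 were higher (10.71%) and 4 lower (14.29%) at an unadjusted p under 0.05, 2 were at the ceiling, and the median was -0.04. Slc30a1, the zinc exporter that MTF1 also controls, had 8.86 to 9.14 with water and 8.79 to 9.32 with silver, a difference of 0.03 (SE 0.11), whose sign changed with array weights and without water replicate 2 or PVP replicate 2. Commd1, a factor of copper export, was the one member without overlap, at 5.38 to 5.48 with water and 5.54 to 5.69 with silver (difference 0.16, SE 0.05). Ftl1, the ferritin light chain, differed by -0.35 (SE 0.11) and Slc30a10, a manganese exporter, by -0.79 (SE 0.25), the latter at -0.24 in males and -1.34 in females.

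Glutathione genes and targets of NRF2 stood lower almost throughout. Of 28 tested, 27 were below 0 with both coatings, 13 (46.43%) were lower at an unadjusted p under 0.05, none passed the adjusted threshold in limma, and the median was -0.44, at -0.19 with citrate and -0.62 with PVP. Without PVP replicates 1 and 4, 8 were lower and the median was -0.35. Nfe2l2, which encodes NRF2 itself, had 7.95, 8.54, 8.33 and 8.70 with water and 7.32 to 8.21 with silver (median 7.70), a difference of -0.67 (SE 0.17; limma adjusted p = 0.225). It was -0.73 with citrate and -0.62 with PVP, and only water replicate 1 lay inside the silver range. Nqo1, a quinone reductase, differed by -0.57 (SE 0.16), Gstt2, a theta glutathione transferase, by -0.61 (SE 0.19) and Gclc, the catalytic subunit that limits glutathione synthesis, by -0.74 (SE 0.31). Gstk1, a mitochondrial and peroxisomal transferase, had -0.67 (SE 0.19) when pooled, but -0.37 with citrate and -0.97 with PVP, and PVP minus citrate was -0.60 (95% interval -0.89 to -0.31). Gstm1, a mu transferase, had -0.44 (SE 0.21). The exception was Hmox1, the haem oxygenase, at 6.30 to 7.10 with water and 6.66 to 8.27 with silver (difference 0.43, SE 0.25). Measured from the water livers of the same sex, the list's median was -0.91, -0.86, -0.20 and -0.48 for the PVP livers in order and -0.26, -0.11, -0.21 and -0.21 for the citrate livers; all 8 silver livers were below 0. Water livers enter their own mean, so their deviations, within 0.02 of 0, are too small to compare.

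Of 17 antioxidant enzymes 13 were below 0 and 3 lower at an unadjusted p under 0.05, with a median of -0.15; without PVP replicates 1 and 4 1 was lower. Prdx2, a peroxiredoxin, had -0.29 (SE 0.09), Txnrd2, the mitochondrial thioredoxin reductase, -0.19 (SE 0.08) and Sod1, the cytosolic superoxide dismutase, -0.26 (SE 0.12). Of 21 heat shock chaperones 16 were below 0 and 3 lower, with a median of -0.14, at -0.02 with citrate and -0.27 with PVP; without PVP replicates 1 and 4 1 was lower. Hsph1, an HSP110 chaperone, lay at 9.99 to 10.28 with water and 8.06 to 9.95 with silver, with no overlap, and a difference of -1.0 (SE 0.27; limma adjusted p = 0.287). Pooling joins unlike values here, since Hsph1 had -0.59 with citrate and -1.41 with PVP. Hsp90aa1, the inducible HSP90, had -0.02 and -1.21, and Stip1, which hands clients from HSP70 to HSP90, -0.27 and -1.39. PVP minus citrate was -1.19 (95% interval -1.65 to -0.74) for Hsp90aa1 and -1.12 (95% interval -1.62 to -0.62) for Stip1, without an adjusted call.

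Genes of fatty acid oxidation under PPAR-alpha, the fatty acid sensor of the liver, stood lower too. Of 31 tested, 28 were below 0, 26 of them with both coatings, and 7 (22.58%) were lower at an unadjusted p under 0.05; the median was -0.46, or -0.26 with 4 lower without PVP replicates 1 and 4. The median was -0.24 without water replicate 4 and -0.10 with array area in the fit. Plin2, the coat protein of lipid droplets, had 13.50, 13.42, 13.86 and 14.13 with water and 12.44 to 13.29 with silver, with no overlap. Its difference was -0.86 (SE 0.19; limma adjusted p = 0.151), at -0.76 with citrate and -0.96 with PVP, and -0.88 in males and -0.85 in females. Ehhadh, a peroxisomal oxidation enzyme, had -1.06 (SE 0.30) when pooled but -0.60 and -1.52 by coating. Acaa1b and Acaa1a, peroxisomal thiolases, had -1.31 (SE 0.41) and -0.67 (SE 0.21); these are near-identical copies, and shared signal between them was not separated. Cpt1a, the gate of mitochondrial oxidation, had -0.21 (SE 0.25), which ran from -0.40 to -0.0017 with 1 array left out and changed sign when array area was added to the fit.

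Of 22 genes of fatty acid and triglyceride synthesis, 17 were below 0 and 3 lower at an unadjusted p under 0.05, with a median of -0.16. That median was 0.01 with citrate and -0.54 with PVP, 9 of the 22 were below 0 with both, and it was -0.09 without PVP replicate 1 and -0.10 without PVP replicate 2. Mlxipl, which encodes the glucose sensor ChREBP, had 12.56, 12.78, 12.80 and 12.21 with water and 11.12 to 12.53 with silver, a difference of -0.92 (SE 0.19; limma adjusted p = 0.136), with -0.98 for citrate and -0.86 for PVP. Elovl5, a fatty acid elongase, had -0.25 with citrate and -1.03 with PVP, and PVP minus citrate was -0.79 (95% interval -1.23 to -0.34). Fasn, fatty acid synthase, had -0.38 and -1.35, and its pooled -0.86 (SE 0.47) was -0.54 without PVP replicate 1. Lpin1, a phosphatidate phosphatase, pulled the other way, from 10.45, 11.87, 11.27 and 12.80 with water to 9.11 to 16.03 with silver. It had 3.57 with citrate and 0.26 with PVP, so its pooled 1.92 (SE 1.11) describes neither coating. Of 18 cholesterol synthesis genes 14 were above 0 with 1 higher and 1 lower at an unadjusted p under 0.05, and a median of 0.27, at -0.03 in males and 0.58 in females; it was 0.12 without water replicate 2 and 0.11 without PVP replicate 2. Sqle, squalene epoxidase, had 1.15 (SE 0.50), Fdps, farnesyl diphosphate synthase, 0.85 (SE 0.44; 0.13 in males and 1.56 in females) and Insig1, which holds back the sterol sensor, -0.52 (SE 0.14). Without PVP replicates 1 and 4 7 of these 18 were higher and the median was 0.42.

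Acute phase genes stood higher, most of all in 3 livers. Of 26 tested, 22 were above 0 and 4 were at the ceiling; 4 were higher at an unadjusted p under 0.05 and none passed the adjusted threshold, with a median of 0.51, or 0.49 with 1 higher without PVP replicates 1 and 4. Measured from the water livers of the same sex, the list's median was 0.85, 0.00, 0.00 and 0.24 for the citrate livers in order and 0.88, 1.84, 0.16 and 0.26 for the PVP livers. The females citrate replicate 1 and PVP replicates 1 and 2 thus stood apart from the other 5 silver livers. Saa2, a serum amyloid A, had 7.38, 10.13, 9.31 and 9.70 with water, 14.09, 8.63, 9.33 and 10.53 with citrate, and 19.34, 19.28, 11.80 and 13.31 with PVP. Its pooled difference was 4.16 (SE 1.75; limma adjusted p = 0.44), and PVP minus citrate was 5.29 (95% interval 2.32 to 8.26). Its neighbour in sequence Saa1 had 3.69 (SE 1.5); these copies may share signal. Fgl1, a secreted liver protein, was more even, with 12.68, 14.56, 13.03 and 14.71 in water and 14.08 to 17.38 in silver, a difference of 1.91 (SE 0.44; limma adjusted p = 0.201). In males Fgl1 had 1.90 and in females 1.92, and with citrate 1.36 and with PVP 2.46. Cebpb, a transcription factor of the acute phase, differed by 0.50 (SE 0.13), Orm1, an acid glycoprotein, by 0.62 (SE 0.29) and Lcn2, a lipocalin that withholds iron, by 2.63 (SE 1.11). Among 24 interleukin signalling genes 5 were higher and 2 lower, with a median of 0.05; Nfkbiz, a nuclear inhibitor of NF-kappaB, had 0.56 (SE 0.15), and Tnfaip2 had -0.50 (SE 0.10) beside Irak2.

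**Figure D4:**
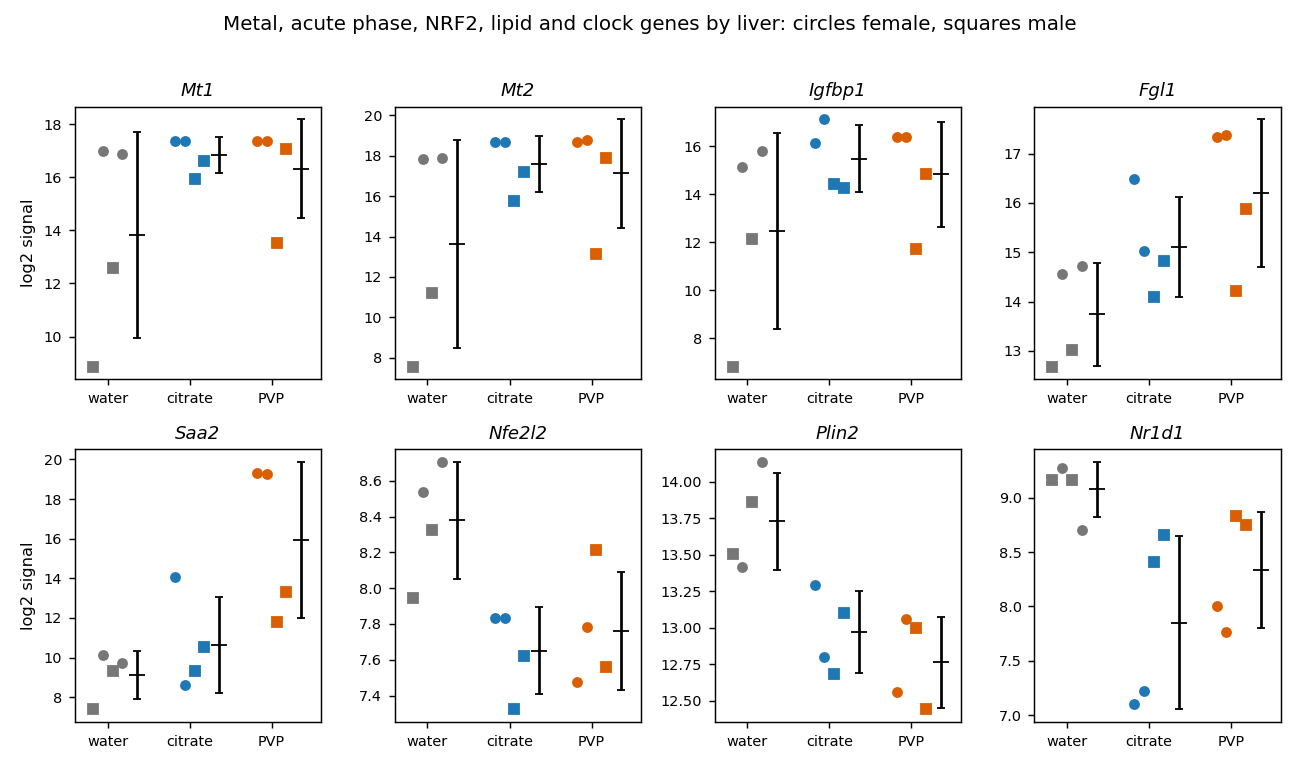
Log2 signal in each liver of 8 genes of metal, inflammatory, stress, lipid and clock biology (vertical axis differs by panel; circles are females, squares males; the bar is the mean with the SD of 4). Among the water livers the males stand lowest in Mt1, Mt2 and Igfbp1, and PVP replicates 1 and 2, both females, stand highest in Saa2.

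Cell type markers were measured in whole liver, where a change in cell number and in RNA per cell cannot be told apart. All 20 Kupffer cell and macrophage markers were above 0, with 1 (5.0%) higher at an unadjusted p under 0.05 and a median of 0.33, at 0.03 in males and 0.66 in females. Their mean signal ran from 7.85 to 8.75 with water and from 8.0 to 9.76 with silver, with PVP replicate 2 farthest out (median deviation 1.48). The median was 0.08 without water replicate 2 and 0.19 without PVP replicate 2. Cd163, a haemoglobin scavenger receptor, had 7.46, 6.53, 6.98 and 7.62 with water and 7.46 to 9.40 with silver, a difference of 1.0 (SE 0.34). Clec4f, which defines mouse Kupffer cells, had 0.52 (SE 0.27) and Cd5l, a macrophage protein, 0.94 (SE 0.43); without water replicate 2 these were 0.29 and 0.60. Of 17 neutrophil and monocyte markers 15 were above 0 and 3 higher, with a median of 0.22 and mean signals of 4.56 to 5.60 with water and 5.15 to 6.36 with silver. S100a8, a calcium-binding protein of neutrophils, had 4.76, 7.57, 7.44 and 8.94 with water and 8.07 to 11.63 with silver, a difference of 1.75 (SE 0.64); its partner S100a9 had 1.55 (SE 0.63). Without water replicate 1 they were 1.10 and 0.99. PVP replicate 2 was highest for both, and was also the liver of highest acute phase deviation. The part of these cells in the acute phase values was not tested.

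Stellate cell and matrix markers went the other way, with 17 of 18 below 0 with both coatings, 4 (22.22%) lower at an unadjusted p under 0.05 and a median of -0.21; without PVP replicates 1 and 4 2 were lower and the median was -0.25. Reln, a stellate cell glycoprotein, had 8.79, 8.73, 9.06 and 9.11 with water and 7.87 to 9.03 with silver, a difference of -0.54 (SE 0.20), at -0.24 with citrate and -0.83 with PVP. The mean signal of these markers was 6.62 to 7.13 with water and 6.27 to 6.81 with silver. Of 18 sinusoidal endothelial markers 15 were below 0 and 1 lower, Gpr182 among them at -0.42 (SE 0.12), with a median of -0.16, at 0.05 with citrate and -0.33 with PVP. Without PVP replicates 1 and 4, 10 of these 18 were below 0 and the median was -0.03. Of 20 hepatocyte markers 5 were at the ceiling, 3 were lower and the median was -0.00. The hepatocyte transcription factors Foxa1, Cebpa and Foxa2 had -0.96 (SE 0.32), -0.61 (SE 0.22) and -0.45 (SE 0.18). Cholangiocyte markers had a median of 0.05 over 7, lymphocyte markers 0.03 over 15 with Ighm at -0.35 (SE 0.11), and pancreas and blood cell markers 0.05 over 3; of the last, 13 of 16 were not tested, the haemoglobin genes and pancreatic enzymes such as Cpa1 and Pnlip among them.

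Of 18 clock genes 5 (27.78%) were lower at an unadjusted p under 0.05 and none higher, with a median of -0.09; without PVP replicates 1 and 4 3 were lower and the median was -0.04. Nr1d1, the repressor REV-ERB-alpha, had 9.16, 9.28, 9.16 and 8.70 with water and 7.11 to 8.83 with silver, a difference of -0.98 (SE 0.23; limma adjusted p = 0.204). The difference was -1.46 in females and -0.50 in males, and -1.23 with citrate and -0.74 with PVP. Clock differed by -0.45 (SE 0.17), Dbp, an output factor, by -0.40 (SE 0.15), Per3 by -0.20 (SE 0.08) and Per1 by 0.34 (SE 0.28; 1.02 in males and -0.35 in females). Without water replicate 4 Dbp had -0.25 and Per1 0.61, without replicate 3 Per3 had -0.11, and without replicate 1 Per1 had 0.08. Of 20 glucocorticoid-induced genes 5 (25.0%) were higher, Mt2 among them, and 1 lower, with a median of 0.18. The median was 0.40 in males and -0.04 in females, 0.32 with citrate and 0.09 with PVP, and 0.06 without water replicate 1 or 0.10 without citrate replicate 2. Zbtb16, a transcription factor, had 5.97, 6.29, 6.15 and 5.87 with water and 6.12 to 9.45 with silver, a difference of 1.59 (SE 0.53), at 2.38 with citrate and 0.80 with PVP. Ddit4, an inhibitor of mTORC1, had 0.84 (SE 0.34) and the phosphatase Dusp1 -0.96 (SE 0.40), or -0.61 without water replicate 2. Of 23 genes of gluconeogenesis, fasting and insulin 2 were higher and 2 lower. Crtc2, a coactivator of fasting genes, lay at 6.58 to 6.85 with water and 6.30 to 6.53 with silver, with no overlap, -0.27 for each coating and a pooled difference of -0.27 (SE 0.06; limma adjusted p = 0.133); Fbp1, a gluconeogenic phosphatase, had -0.25 (SE 0.09) and the kinase Sik1 0.72 (SE 0.28; 1.17 in males and 0.27 in females), or 0.34 without water replicate 1.

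Respiratory complex I had 27 of 34 below 0 but 2 lower (5.882%), Ndufa8 at -0.53 (SE 0.16) and Ndufa3 at -0.47 (SE 0.17), both without overlap. Mitochondrial ribosome genes had 42 of 51 below 0 and 5 lower (9.804%), or 3 without PVP replicates 1 and 4, with Mrpl34 at -0.45 (SE 0.11). With both coatings 16 of the 34 and 23 of the 51 were below 0. Complex I had a median of -0.03 with citrate and -0.18 with PVP, and the mitochondrial ribosome -0.003 and -0.16. Pooled medians of -0.09 and -0.08 were -0.03 and -0.02 with arrays centred on protein-coding genes. Of 18 base excision repair genes 3 were higher (16.67%) and none lower, by small amounts: Nthl1, a DNA glycosylase, had 0.16 (SE 0.04) without overlap, Ung, which removes uracil from DNA, 0.13 (SE 0.05) and Neil2 0.21 (SE 0.09). Their signals were low, at 4.47 to 4.81, 4.50 to 4.82 and 3.92 to 4.52 over the 12 arrays. The intron control probe sets had medians of 4.63 to 4.88 by array, so these differences are uncertain. The list's median was 0.02, or -0.02 with a filter at the 60th percentile. Of 19 p53 targets 1 was higher and 1 lower, Trp53inp1 at 1.40 (SE 0.44), or 0.86 without water replicate 1, and Plk2 at -0.61 (SE 0.20). Of 32 drug-metabolising genes 1 was higher, Cyp3a13 at 0.79 (SE 0.31), and 1 lower, Cyp2c38 at -0.86 (SE 0.38), while Cyp1a2 had -0.26 (SE 0.36), and -0.45 to -0.12 with 1 array left out. Cyp2b10 had 1.06 with citrate and -0.33 with PVP, and its pooled 0.37 (SE 0.63) ran from 0.04 to 0.72 with 1 array left out. Of 28 bile acid genes 1 was higher, the hydroxylase Cyp7b1 at 0.84 (SE 0.28), and 3 were lower, the transporters Abcc3 and Abcb11 and the synthetic enzyme Hsd3b7; Cyp7a1, the rate-limiting enzyme of bile acid synthesis, had 0.87 (SE 0.50), and 0.54 to 1.31 with 1 water liver left out. Of 20 growth hormone and STAT5 genes 1 was higher and 2 lower, Stat5a at -0.25 (SE 0.08) and Stat5b at -0.31 (SE 0.12). The cell cycle list had Ccne1 higher at 0.24 (SE 0.06) of 19, and the interferon-stimulated list Oas2 at 0.44 (SE 0.19) of 24. Neither the unfolded protein response (23), the proteasome (30) nor the TRiC chaperonin (7) had a member at an unadjusted p under 0.05, with medians of -0.07, -0.04 and -0.11; without PVP replicates 1 and 4 these were 0.04, 0.02 and 0.01, and 1 member of the first list was higher. TRiC had a median of 0.12 with citrate and -0.32 with PVP.

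**Figure D5:**
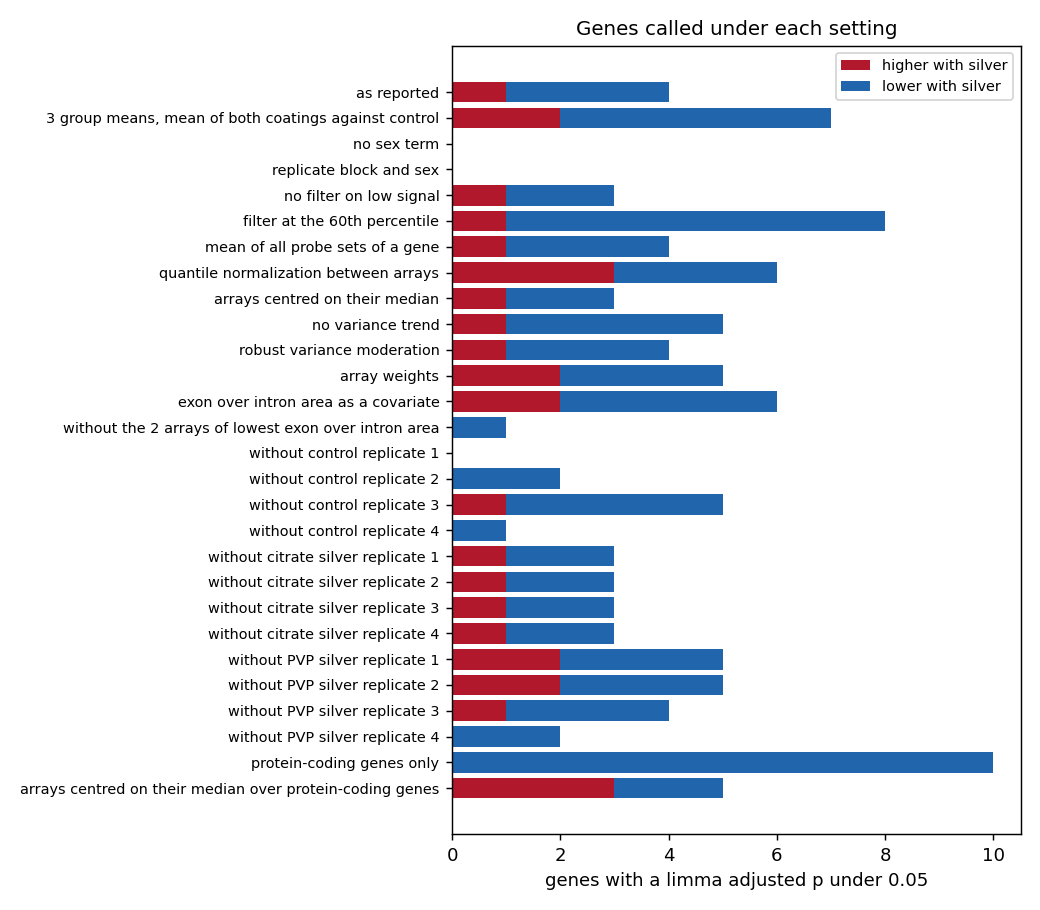
Number of genes with an adjusted p under 0.05 for silver against water as reported and under each of 27 alternatives, split into higher and lower. The count is 4 as reported and runs from 0 to 10, and genes lower with silver make up at least as many calls as higher ones in all settings with calls except the centring on protein-coding genes.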

How the data were processed

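Liver RNA of 12 mice was hybridised to Affymetrix whole-transcript arrays. The deposited table held log2 signals of 72688 probe sets; RMA and Transcriptome Analysis Console 4.0.1.36 stand in the submitters' processing notes without roles, and the annotation behind the signals was not given in the sources used here. Probe sets were named from the platform table (30604 with 1 symbol, 2146 with several, 39938 with none) and 1135 symbols were updated with RefSeq (GRCm38.p6). The probe set of highest mean stood for each of 30063 genes; 429 had several. Genes with a mean above the 40th percentile, 3.93, were tested, 19985 in all.

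Silver and sex were fitted with limma 3.58.1 in R 4.3.3 (variance trend, two-sided, Benjamini-Hochberg); further fits gave each coating, PVP minus citrate, and the effect by sex. The script was tested on simulated data. The p-values measure the spread between these mice. Named were the 24 genes of smallest p, up to 4 of smallest p per list and a fixed panel, with some predicted genes only counted. The 34 lists (858 genes) and all members were chosen with earlier results of these data known; marker levels are ranges without a test.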

Additional observations from a re-analysis of the deposited data

Results flagged for a closer look

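Among 121 genes, 242 groups of water or silver livers were searched for a liver that stood apart from the rest of its group, and 15 had one. Chance alone flags about 1 in 20 groups. Values are log2 signals.

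In the water group, replicate 3 was lowest for Mid1ip1 (7.005, nearest other 7.357) and for Orm1 (17.61, nearest 18.04). Replicate 2 was lowest for the thiolase Acaa1b (12.87, nearest 14.23) and the transcription factor Foxa2 (6.464, nearest 7.163). Replicate 4 was highest for Ehhadh (16.13, nearest 15.52) and the Kupffer cell lectin Clec4f (10.29, nearest 9.633).

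In the silver group, PVP replicate 1, the array of lowest exon over intron area, was lowest for Rai14 (6.334), Ftl1 (15.28), Ndufa8 (8.736) and Per1 (7.119). PVP replicate 2 was highest for the neutrophil genes S100a8 (11.63) and S100a9 (11.52) and for Oas2 (6.586). PVP replicate 3, a male, was lowest for Mt1 (13.52, nearest 15.94), and citrate replicate 1 was highest for Gpr182 (5.905, nearest 5.518).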

How the results depend on the processing

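The count of genes past a limma adjusted p of 0.05 for silver against water, 4 as reported, was 7 with 3 group means, 8 with a filter at the 60th percentile and 10 with protein-coding genes only, the last chosen after the data were seen. It was 0 without a sex term (1852 genes at an unadjusted p under 0.05), and 1 when both low-area arrays, PVP replicates 1 and 4, were dropped. Leaving out 1 array gave 0 to 5; the 0 came without control replicate 1 (1734 at an unadjusted p under 0.05), 2 without control replicate 2 or PVP replicate 4 and 1 without control replicate 4. With the replicate block and sex it was 0 (1757 at an unadjusted p under 0.05; Grb7 adjusted p 0.1005). Replicate numbers were not taken to pair the mice: same-numbered livers correlated between -0.52 and 0.53 in their deviations, and numbers 1 and 4 differ in sex between groups, while 2 and 3 do not. Counts for PVP against citrate and for females minus males stayed at 0 by limma in all settings run, against 2800 and 469 genes at an unadjusted p under 0.05.

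Of the genes named, signs changed for Slc30a1 (-0.0096 with array weights, and -0.027 to 0.075 with 1 array left out, below 0 without control replicate 2 and, at -0.0081, PVP replicate 2) and, with the area as a covariate, for Cyp1a2 (0.077) and Cpt1a (0.033). With 4 water livers, each control weighs heavily: Grb7 differed by -0.99 to -0.86 over all 27 alternatives, with adjusted p-values of 0.000834 to 0.1005. No scaling moved the median of all genes by over 0.064. The centring on protein-coding genes, which gave that shift, reversed the split at an unadjusted limma p under 0.05. It gave 1476 genes higher and 684 lower. The ceiling hides changes of the brightest genes.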
